A study of Mus musculus with 33 samples.

Results

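Dividing goblet-lineage cells are cells of the mouse large-intestinal epithelium that carried RNA of the mucus-making goblet programme and RNA of mitosis at the same time. A cell was taken as a member when, per 10000 of its UMIs (unique molecular identifiers, which count captured RNA molecules), at least 10 came from 6 mitotic genes and at least 50 from 5 goblet genes. The mitotic genes were Ube2c, Cdc20, Ccnb1, Cenpf, Birc5 and Cenpa, and the goblet genes were Muc2, Fcgbp, Clca1, Spink4 and Tff3. The rule was met by 385 of 23762 cells (1.62%). They were 6.12% of the 6289 cells that passed the goblet limit and 14.6% of the 2633 cells that passed the division limit. Their neighbours on either side were 5904 goblet cells below the division limit, called goblet cells from here on, and 2248 dividing cells below the goblet limit, called dividing cells. A further 15225 cells passed neither limit.

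The cells came from 33 single-cell RNA libraries of 11 female wild-type C57BL6/J mice, 5 young (8 to 20 weeks) and 6 old (90 to 108 weeks), with cecum, proximal colon and distal colon of each mouse sequenced separately. Crypts were isolated, dissociated and stained with an antibody against EpCAM, a surface protein of epithelial cells, and sorted positive cells were loaded on a droplet instrument with a version 2 or 3.1 kit of 3' chemistry. The labels name no treatment, so age and gut compartment are the contrasts of the design. Members were found in 28 of the 33 libraries, and no library of Young 2 held any.

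Goblet cells secrete the gel-forming mucin Muc2 and its companions, and they descend, like the absorptive colonocytes, from stem cells at the crypt base. A progenitor takes the secretory path when it keeps the transcription factor Atoh1. Atoh1 raises the Notch ligand Dll1, which switches on Notch in the neighbouring cell, and there Notch raises the repressor Hes1, which holds Atoh1 down. Mature goblet cells are held not to divide, whereas their precursors divide before they leave the lower crypt. The mitotic genes of the rule act late in the cell cycle: cyclin B1 (Ccnb1) drives entry into mitosis, Birc5 is a subunit of the chromosomal passenger complex, Cenpa and Cenpf belong to centromere and kinetochore, and Cdc20 and Ube2c serve the anaphase-promoting complex that ends mitosis.

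Libraries held 18 to 3403 cells and 536778 to 21288806 UMIs. Depth split the mice into 2 sets. Young 1 to 3 and Old 1 to 3 had median depths of 28055.5 to 36341 UMIs per cell and 43 members among 3627 cells. Young 4, Young 5 and Old 4 to 6 had medians of 3982 to 10039 UMIs and 342 members among 20135 cells. Which kit made which library is not given in the sources used here, so the sets are called high-depth and low-depth, and each holds young and old mice. Young 4 (106), Young 5 (124), Old 4 (53), Old 5 (37) and Old 6 (22) gave most members, followed by Young 3 (13), Old 1 (12), Young 1 (8), Old 3 (7) and Old 2 (3). Expression was compared in the 7 mice with at least 10 members. Of all cell barcodes, 226 occurred in 2 or more libraries, 8 of them on members, and 0 were shared between libraries of the same mouse.

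The members were chosen by the measured levels of the rule's 11 genes, so those genes are given as a description. Levels here and below are UMIs per 1000000 UMIs of a class in a mouse (CPM), so they are shares of the RNA captured and do not tell fewer positive cells from less RNA per cell. Muc2 stood at 2698, 3488 and 4406 CPM (lowest, median and highest of 7 mice) in members. It stood at 6605, 10994 and 12662 CPM in goblet cells and at 54.4, 105 and 148 CPM in dividing cells, so its level in members lay between those of the neighbours without overlap. Spink4, a small secreted goblet peptide, had a median of 15089 CPM in members, against 24287 CPM in goblet cells and 322 CPM in dividing cells. It was seen in 100% of members, but also in 99.7% of goblet cells, 95.3% of dividing cells and 92.5% of cells below both limits. Ube2c, which hands ubiquitin to substrates of the anaphase-promoting complex, stood at 495, 583 and 796 CPM in members and at 509, 603 and 844 CPM in dividing cells. The median in goblet cells was 22.7 CPM.

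The division limit ran through a continuous range and the goblet limit lay near a dip. Among cells past the goblet limit, 60 had 8 to 10 mitotic UMIs per 10000 and 51 had 10 to 12. Among cells past the division limit, 20 had 40 to 50 goblet UMIs per 10000 and 26 had 50 to 63, while 2048 had fewer than 25 and 123 had 400 or more. Members thus ran from 50.1 to 1975 goblet UMIs per 10000 (median 248) and from 10.0 to 62.7 mitotic UMIs per 10000 (median 19.3).

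**Figure D1:**
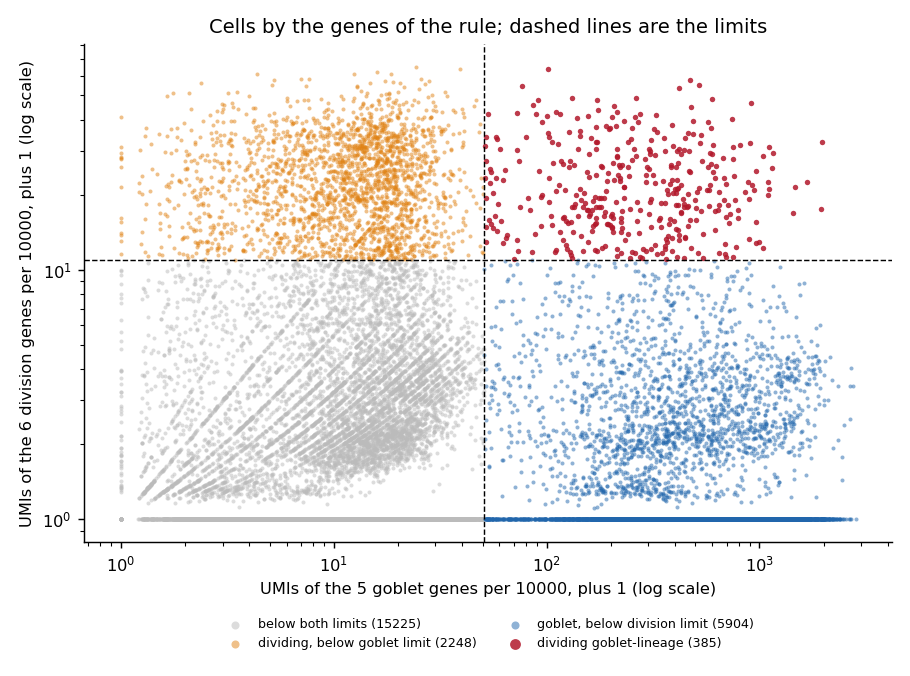
UMIs of the 5 goblet genes (horizontal) and the 6 mitotic genes (vertical) per 10000 UMIs of each cell, plus 1, on log axes, with the limits of the rule as lines. The 385 members fill the upper right corner, and few dividing cells lie just to either side of the goblet limit (20 at 40 to 50, 26 at 50 to 63).

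Goblet RNA was also found in other cell types. The goblet limit was passed by 42 of 525 tuft cells (8.00%, exact 95% interval 5.83 to 10.7%, median depth 6042 UMIs) and by 465 of 7918 colonocytes (5.87%, 5.36 to 6.41%). It was passed by 51 of 340 enteroendocrine cells (15%, 11.4 to 19.2%, median depth 4324.5 UMIs), the hormone-making cells that also take the secretory path. It was passed by 385 of 2633 cells past the division limit (14.6%, 13.3 to 16.0%, median depth 11191 UMIs), a share above those of tuft cells and colonocytes and level with that of enteroendocrine cells. Passing the limit thus does not by itself tell goblet RNA made in the cell from background. The intervals cover counting error only. In 5 of the 6 mice with both counts the share was higher in cells past the division limit than in tuft cells, from 13.2% against 0% in Old 3 to 16.3% against 9.93% in Young 4. In Young 5 the shares were level, at 19.6% and 19.7%, so results are also given without Young 5.

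Immune markers were scarce in members, and markers of other epithelial cells were seen at shares near those of the neighbours. Of 8 immune markers 6 were at 0, among them Cd3e, Cd79a and Lyz2, and 0.519% of members held any immune UMI. Any of 5 colonocyte markers was seen in 94.5% of members, 91.5% of goblet cells and 96.2% of dividing cells. The summed colonocyte list had a median of 5.38 UMIs per 10000 in members, against 5.54 in goblet cells and 9.76 in dividing cells, and its mean in members ran from 0.452 to 38.8 over the 7 mice. Any of 4 stem cell markers was seen in 49.6% of members, 54.5% of dividing cells and 26.1% of goblet cells. Tuft markers were seen in 23.4% of members, 20.3% of goblet cells and 22.8% of dividing cells, and enteroendocrine markers in 30.4%, 27.2% and 29.8%.

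Members held more RNA than goblet cells, and their depth did not pass a test of difference from dividing cells. Their median depth was 38070 UMIs in Young 3, 13969 in Young 4 and 6605.5 in Young 5. It was 46848.5 UMIs in Old 1, 7543 in Old 4, 14907 in Old 5 and 13180 in Old 6. In each of the 7 mice the median of members was above that of goblet cells, by 1.14 times in Young 3 to 1.85 times in Young 5. The mean log2 ratio was 0.61 ± 0.086 (SE, n = 7 mice; two-sided exact sign-flip test, p = 0.015625, the smallest that 7 mice allow). Against dividing cells the mean log2 ratio was 0.062 ± 0.060 (SE, n = 7; exact p = 0.421875), higher in 4 mice and lower in 3.

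A droplet that caught a goblet cell together with a dividing cell would meet the rule too, so depth was set against the sum of the neighbours' medians. The median of members was 0.525 to 0.699 times that sum, below it in 7 of 7 mice. Of 367 members in these mice 25 (6.81%) lay above the sum, against 103 of 2065 dividing cells (4.99%) and 78 of 5509 goblet cells (1.42%). The doublet caller Scrublet placed 139 members (36.1%) among the 6% highest scores of their mouse, against 10.8% of goblet cells and 6.18% of dividing cells. Results are therefore also given without those cells and without the deepest 5% of each library, which held 83 members (21.6%).

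**Figure D2:**
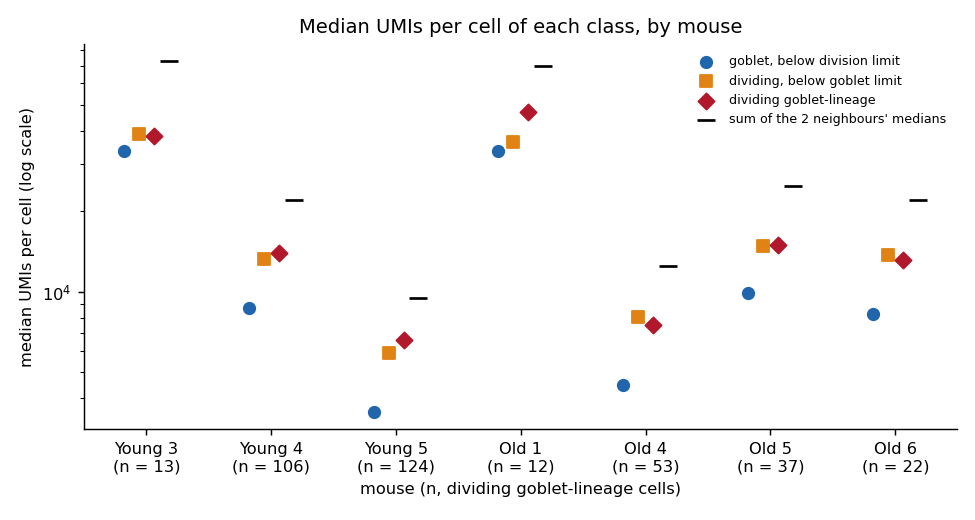
Median UMIs per cell (log axis) of goblet cells, dividing cells and members in each of the 7 mice, with the sum of the medians of goblet and dividing cells as a separate mark. Members sit above goblet cells and below the sum in every mouse shown, at 0.525 to 0.699 times the sum.

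Promoters of mitotic genes often hold a pair of elements read together late in the cycle, the CHR (cell cycle genes homology region, TTTGAA) and the CCAAT box bound by NF-Y. The 250 bases before the start of Ube2c and Cdc20, which chose the cells, and of Cdkn2d and Dll1, which stood above both neighbours in the comparisons below, show how the elements differ between them. Sequences are from RefSeq, build GRCm38.p6, on the strand of the gene. Ube2c lies at chr2:164769679-164769928 (+), Cdc20 at chr4:118437344-118437593 (-), Cdkn2d at chr9:21291210-21291459 (-) and Dll1 at chr17:15375824-15376073 (-). Capitals mark TTTGAA or its reverse TTCAAA, and CCAAT or its reverse ATTGG.
Ube2c: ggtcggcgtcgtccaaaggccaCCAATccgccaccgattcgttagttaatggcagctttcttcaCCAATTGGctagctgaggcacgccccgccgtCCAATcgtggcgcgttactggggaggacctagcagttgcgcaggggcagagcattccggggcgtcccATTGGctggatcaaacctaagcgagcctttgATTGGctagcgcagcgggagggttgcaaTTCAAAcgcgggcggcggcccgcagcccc
Cdc20: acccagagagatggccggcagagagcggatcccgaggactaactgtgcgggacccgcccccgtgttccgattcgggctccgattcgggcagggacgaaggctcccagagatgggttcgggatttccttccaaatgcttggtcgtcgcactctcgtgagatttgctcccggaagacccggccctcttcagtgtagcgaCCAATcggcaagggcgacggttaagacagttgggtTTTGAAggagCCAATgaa
Cdkn2d: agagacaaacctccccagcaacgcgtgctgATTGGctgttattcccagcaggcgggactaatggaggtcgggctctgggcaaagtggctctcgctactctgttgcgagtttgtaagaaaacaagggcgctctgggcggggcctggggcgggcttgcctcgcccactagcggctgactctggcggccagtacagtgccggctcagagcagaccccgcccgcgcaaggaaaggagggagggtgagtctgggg
Dll1: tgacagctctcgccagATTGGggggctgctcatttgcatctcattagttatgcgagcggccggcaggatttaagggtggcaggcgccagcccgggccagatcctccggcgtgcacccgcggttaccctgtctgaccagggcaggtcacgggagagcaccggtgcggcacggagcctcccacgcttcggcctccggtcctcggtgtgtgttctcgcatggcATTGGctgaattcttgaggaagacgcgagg
Ube2c held 1 CHR match, at -29 from the start, and 6 CCAAT matches, some of them overlapping. Cdc20 held 1 CHR match at -18 and 2 CCAAT matches. Cdkn2d held 0 CHR and 1 CCAAT match, and Dll1 held 0 and 2. Of all promoters read in the same way 16.3% held a CHR match and 34.5% a CCAAT match. For the mitotic genes of the rule the counts were 2 of 6 and 5 of 6, and for a wider list of genes of the G2 and M phases 7 of 23 and 17 of 23. A match is a stretch of letters, not a bound site.

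The next question was how far along the goblet path the members were, so they were compared with goblet cells past the same goblet limit. Most goblet genes outside the rule stood lower in members, among them the maturation factor Spdef. Of the factors that specify the lineage, Atoh1 was lower and the Notch ligand Dll1 higher. For each mouse as many goblet cells as members were drawn from each library and the UMIs summed. Sums were compared with edgeR's quasi-likelihood test with mouse as a block, on 7 mice and 5268 genes. With Benjamini-Hochberg adjustment 1461 genes (27.7%) differed at an adjusted p below 0.05, 767 (14.6%) higher and 694 (13.2%) lower. The cells were cut on 11 genes, so a gene that varies together with them differs through that choice. Genes of the cell cycle are for this reason given without a test here.

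Of 16 tested genes in a list of goblet genes outside the rule, 12 were lower in members, 0 were higher and 4 did not pass the test. Their median log2 difference was -0.80, against 0.0068 over all genes. Zg16, a lectin of the mucus layer made by mature goblet cells, stood at 32.3 CPM in Young 3, 4623 in Young 4 and 3228 in Young 5, and at 482, 1551, 135 and 420 CPM in Old 1, 4, 5 and 6. In goblet cells it ran from 3295 to 22185 CPM. Each mouse had less Zg16 in members than in its own goblet cells, although the ranges of the classes overlapped. The fitted log2 difference was -3.81 ± 0.47 (SE; edgeR, adjusted p = 6.73e-06), or 14.0-fold lower, and it passed in 19 of 19 alternative settings.

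Spink1, a secreted protease inhibitor, stood at 3.62, 10.9 and 288 CPM in members (lowest, median and highest) and at 122, 342 and 1386 CPM in goblet cells. It was lower in members of each mouse, with a log2 difference of -2.78 ± 0.29 (edgeR, adjusted p = 1.10e-06). Ang4, an antimicrobial ribonuclease, differed by -2.14 ± 0.48 (adjusted p = 0.00275), and Rep15, a Rab15 partner of secretory cells, by -1.90 ± 0.13 (adjusted p = 6.31e-09). Reg4 and Retnlb, secreted proteins of goblet cells, differed by -0.99 ± 0.18 and -1.15 ± 0.34, the second kept in 11 of 19 alternatives. Agr2, a disulfide isomerase that folds Muc2 in the endoplasmic reticulum, had a median of 14284 CPM in members and 18757 CPM in goblet cells (log2 -0.62 ± 0.074, adjusted p = 5.26e-06).

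Of the 4 goblet transcription factors of the list 3 were lower and 1 did not pass. Spdef, which drives goblet maturation, differed by -0.58 ± 0.13 (edgeR, adjusted p = 0.00252), Foxa3 by -0.56 ± 0.13 and Creb3l4 by -0.39 ± 0.12 (adjusted p = 0.0241). Creb3l1, a membrane-bound factor of secretory cells, was at +0.19 ± 0.099 and did not pass (adjusted p = 0.165). Neither did Ern2, a sensor of unfolded protein in mucous cells, at -0.23 ± 0.14. The receptor Kit and the mucin glycosyltransferase Galnt12, at -0.29 and -0.12, did not pass either.

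Atoh1, the factor that commits cells to the secretory path, stood at 192, 277 and 395 CPM in members and at 264, 342 and 571 CPM in goblet cells. The ranges overlapped. The difference was -0.45 ± 0.11 (adjusted p = 0.00604), and it was lost in 4 of 19 alternatives, among them the high-depth mice alone and the sums without the deepest cells. Dll1, the Notch ligand, went the other way. It stood at 47.5, 24.7 and 31.4 CPM in Young 3, 4 and 5 and at 36.9, 53.1, 42.6 and 21.7 CPM in Old 1, 4, 5 and 6. Its range in goblet cells was 13.9 to 34.9 CPM, so the classes overlapped. The fit gave +0.71 ± 0.18 (edgeR, adjusted p = 0.00671), a call lost in 7 of 18 alternatives. Hes6 (-0.14) and Sox4 (+0.63) did not pass, and Gfi1, Dll4, Mfng, Jag2 and Neurog3 were below the filter on low counts. Gfi1, a repressor that acts within the secretory lineage, was read at 77 UMIs in members and 3 UMIs in the dividing cells of the 7 mice.

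Secretory machinery followed the goblet products. Of 21 tested genes of the endoplasmic reticulum and its stress response 11 were lower in members than in goblet cells and 0 higher, with a median log2 difference of -0.23. Xbp1, the factor that expands the secretory apparatus, stood at 174, 286 and 345 CPM in members against 244, 364 and 427 CPM in goblet cells (log2 -0.42 ± 0.10, adjusted p = 0.00452). Of 11 glycosyltransferase genes 8 were lower and 0 higher (median -0.63), among them Fut2, which adds terminal fucose (-1.0), and Gcnt3, which branches mucin glycans (-0.67). Of 10 genes of ribosome assembly 6 were higher and 0 lower (median 0.45), among them the nucleolar proteins nucleolin (Ncl, +0.47 ± 0.080) and Npm1 (+0.43 ± 0.074). Nucleolin had medians of 196 CPM in goblet cells, 309 CPM in members and 479 CPM in dividing cells. Goblet cells were chosen for little mitotic RNA, so the values of the ribosome assembly genes are a description. Of 10 immediate-early and heat shock genes only Hspa1b changed, by -1.15 ± 0.19.

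Stem cell genes were divided. Of 9 tested, Smoc2 (+1.08 ± 0.25) and Lrig1 (+0.66 ± 0.20) were called higher in members than in goblet cells. The call of Lrig1 was kept in 5 of 17 alternatives. Goblet cells were chosen for little mitotic RNA, so the values of Smoc2 and Lrig1 are a description. Sox9, Prom1 and Slc12a2 were lower, at -0.43, -0.38 and -0.25, kept in 13, 11 and 13 of 19 alternatives. Lgr5, the receptor that marks stem cells, was below the filter and stood at 0 to 17.4 CPM in members. As a description, 22 of 23 tested genes of the G2 and M phases and 10 of 13 of the S phase were called higher in members, with Mki67 at +3.37 and Top2a at +3.04. The uracil glycosylase Ung was called lower (-1.06).

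**Figure D3:**
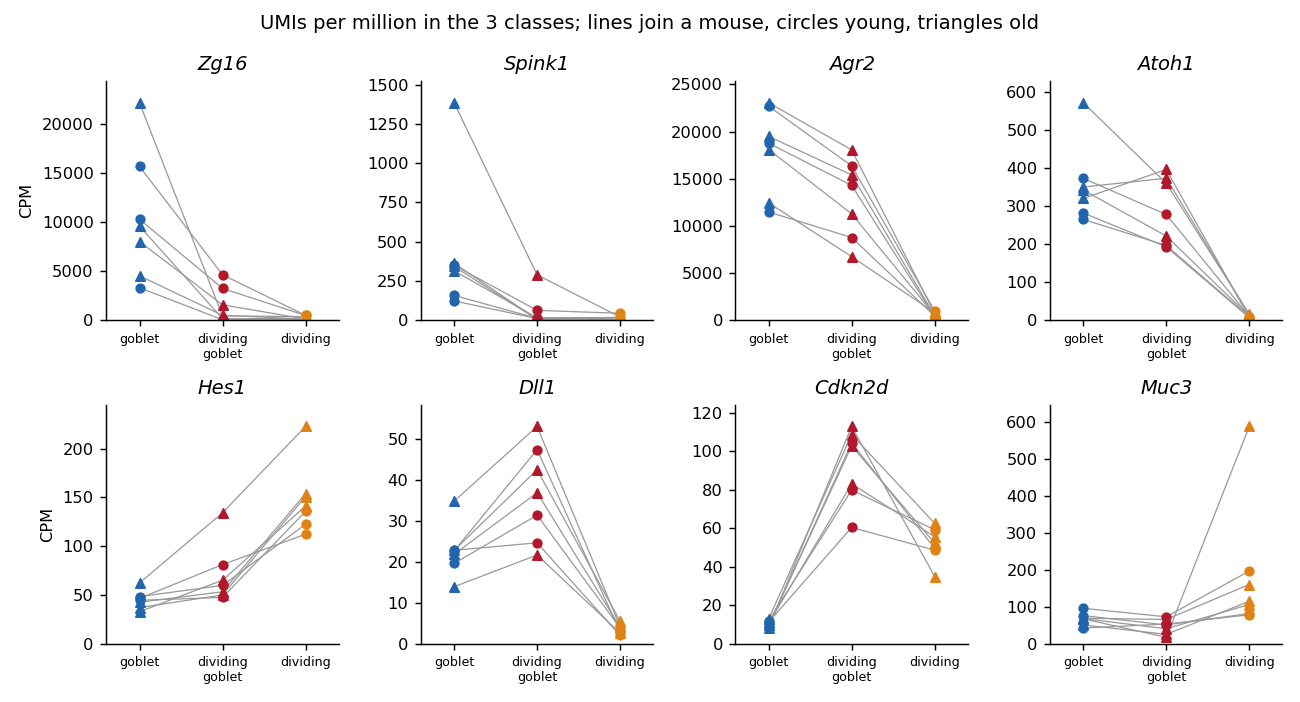
Level of 8 genes in UMIs per 1000000 (CPM, linear axes from 0) in goblet cells, members and dividing cells, with a line joining the classes of a mouse (circles, young; triangles, old; 7 mice). Zg16 and Spink1 fall from goblet cells to members, Cdkn2d is highest in members of every mouse, and Hes1 is highest in dividing cells.

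The second comparison set members against dividing cells, which share the division limit and lack the goblet programme. Most mitotic genes did not pass the test, while the Notch targets Hes1 and Nrarp were lower in members, as a description. Of 5471 genes tested in the same way 1544 (28.2%) differed, 854 (15.6%) higher and 690 (12.6%) lower. Goblet genes chose the cells in this contrast, and all 14 tested goblet genes outside the rule were higher, as a description, from +1.59 (Galnt12) to +6.09 (Reg4).

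Of 27 genes of the G2 and M phases 24 did not pass the test, and the median log2 difference was 0.12 against -0.012 over all genes. Top2a, the topoisomerase that untangles chromosomes, ran from 183 to 734 CPM in members and from 178 to 601 CPM in dividing cells, ranges that overlapped almost wholly (+0.12 ± 0.12, edgeR adjusted p = 0.481). Mki67, the proliferation antigen, was at +0.14 ± 0.10, cyclin A2 (Ccna2) at -0.00062 ± 0.067 and Plk1 at -0.13 ± 0.15, and these did not pass. Cdk1 (+0.29 ± 0.10) and the spindle protein Tacc3 (+0.33 ± 0.12) were higher and the securin Pttg1 (-0.61 ± 0.13) was lower. Of 19 alternatives Cdk1 passed in 4, Tacc3 in 2 and Pttg1 in 18. Of 15 genes of the S phase, the replication helicase subunit Mcm7 (-0.50 ± 0.16) and the chromatin remodeller Hells (-0.57 ± 0.19) were lower and 13 did not pass. These calls were kept in 9 of 19 and 8 of 18 alternatives, and Mcm7 was at 0.056 at a division limit of 20 per 10000.

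Genes of the secretory choice separated the classes. Atoh1 stood at 6.24, 9.15 and 15.4 CPM in dividing cells, so the lowest mouse of members (192 CPM) was above the highest of dividing cells. The fitted difference was +5.09 ± 0.17, or 33.9-fold. Dll1 stood at 2.03 to 5.55 CPM in dividing cells, again without overlap (+2.74 ± 0.23). Hes6, a relative of Hes1, was at +1.16 ± 0.12. Atoh1, Dll1 and Hes6 vary with the goblet genes that chose the cells, so these values are a description.

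The Notch target Hes1 ran opposite. In members it stood at 47.5, 59.8 and 81.0 CPM in Young 3, 4 and 5 and at 49.98, 134, 53.2 and 65.1 CPM in Old 1, 4, 5 and 6. In dividing cells of the same mice it was 136, 122, 112, 151, 223, 154 and 141 CPM. Only Old 4 members reached the range of dividing cells, and in each mouse members were lower. The difference was -1.04 ± 0.12, or 2.05-fold lower. Against goblet cells Hes1 was at +0.22 ± 0.15 and did not pass (edgeR, adjusted p = 0.344). Nrarp, a feedback inhibitor of Notch, was the other Notch target measured and was also lower than in dividing cells, by -0.88 ± 0.18. Hes1 opposes Atoh1, as set out above, and goblet genes chose the cells. The values of Hes1 and Nrarp against dividing cells are therefore a description.

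Of 11 stem cell genes 3 were lower in members than in dividing cells and 8 did not pass. Ascl2, a factor of crypt base stem cells, stood at 5.70, 18.2 and 25.3 CPM in members and at 41.9, 53.2 and 87.7 CPM in dividing cells. The groups did not overlap, and the difference was -1.32 ± 0.21, a call lost in the high-depth mice alone. Ascl2 was also low in goblet cells, with a median of 13.1 CPM. Cd44 (-0.53 ± 0.15), a surface glycoprotein of the crypt base, and Smoc2 (-0.51 ± 0.18, kept in 10 of 19 alternatives) were lower too. Muc3, a membrane mucin of the brush border (-2.0 ± 0.19), Sult1a1, a sulfotransferase (-2.01 ± 0.17), Car1, a carbonic anhydrase (-1.83 ± 0.28), and Aqp4, a water channel (-1.83 ± 0.19), were among the 10 with the largest negative differences, and members were lower in 7 of 7 mice for each of the 10. Goblet genes chose the cells in this contrast, so the values of the genes named in this paragraph are a description.

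Secretory machinery was higher than in dividing cells. Of 21 genes of the endoplasmic reticulum 18 were higher in members than in dividing cells and 0 lower (median +0.71). Xbp1 differed by +1.26 ± 0.10 and the chaperone Hspa5 by +0.68 ± 0.10. Genes of secretion vary with the goblet genes that chose the cells. Of 10 glycosyltransferases 9 were higher (median +1.5). As a description, of 10 ribosome assembly genes 5 were lower and 0 higher, with nucleolin (Ncl) at -0.51 ± 0.075 and Npm1 at -0.26 ± 0.066. Of 10 immediate-early and heat shock genes 7 were higher, Fos by +0.68 ± 0.092, and Hspa1a was lower by -0.84 ± 0.14.

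Genes called against both neighbours fell into 4 patterns. Of 5053 genes tested against both, 132 were above goblet cells and below dividing cells and 299 were below goblet cells and above dividing cells. A further 52 (1.03%) stood above both neighbours and 59 (1.17%) below both. The tests share the members' UMIs, so a call against one side is not independent of a call against the other. A gene that follows division differs from goblet cells, and one that follows the goblet programme from dividing cells, through the choice of cells, and for it that side is a description. The count above both was 28 without the deepest cells (19 of the 52 among them), 18 without the highest Scrublet scores (13 among them), 44 without Young 5 (35 among them), 30 without Old 1, 31 without Old 5 and 37 with another random draw (26 among them). Without the highest Scrublet scores all 47 of the 52 that could still be tested kept their direction on both sides.

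Cdkn2d, which encodes the inhibitor p19INK4d of the kinases Cdk4 and Cdk6, had the largest difference from its nearer neighbour among genes above both with at least 20 CPM. In members it was 104, 79.9 and 60.5 CPM in Young 3, 4 and 5 and 113, 109, 103 and 83.2 CPM in Old 1, 4, 5 and 6. It was 34.9 to 62.6 CPM in dividing cells and 8.44 to 12.99 CPM in goblet cells. Young 5 members fell inside the range of dividing cells, although above the dividing cells of Young 5 (48.7 CPM), and no member value reached goblet cells. The differences were +0.88 ± 0.14 against dividing cells (edgeR, adjusted p = 5.14e-05; 1.84-fold), a call that passed in 19 of 19 alternatives. Against goblet cells, which were chosen for little mitotic RNA, it was +2.60 ± 0.22 as a description.

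No other cell cycle inhibitor of the list was called above both neighbours. Of the 10 tested genes in a list of cell cycle exit, Cdkn2c (p18INK4c) was at +1.84 ± 0.28 against goblet cells, as a description, and did not pass against dividing cells (+0.14 ± 0.15, adjusted p = 0.564). Cdkn1a (p21) lay between the neighbours, at -0.83 ± 0.22 against goblet cells and +0.45 ± 0.13 against dividing cells. Cdkn1b (p27) was at +0.50 ± 0.17, kept in 5 of 16 alternatives, and at +0.24 ± 0.18, which did not pass. Cyclin D1 (Ccnd1), which activates Cdk4 and Cdk6, was lower than in goblet cells (-0.46 ± 0.12) and than in dividing cells (-0.58 ± 0.15). The values of Cdkn1a, Cdkn1b and Ccnd1 against goblet cells are a description. The antiproliferative Btg2 (+0.74 ± 0.13) and Gadd45a (+0.72 ± 0.16) were higher than in dividing cells and did not pass against goblet cells.

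Among other genes above both neighbours were Notch pathway members. Lfng, a glycosyltransferase that modifies Notch receptors, stood at 20.2, 24.7 and 43.5 CPM in members, above the 15.3 CPM that was its highest value in goblet cells and the 11.2 CPM that was its highest in dividing cells. The differences were +0.83 ± 0.21 and +1.28 ± 0.24 (edgeR, adjusted p = 0.00741 and 0.000224). The first was lost in 3 of 12 alternatives. Dll1, whose values stand above, belonged to the same group. Slc29a1, a nucleoside transporter, was at +0.86 ± 0.18 and +1.09 ± 0.18, and Bora, an activator of Aurora A kinase, at +2.4 ± 0.27 and +0.66 ± 0.19. Cdc25b, a phosphatase that activates Cdk1, was at +2.20 ± 0.28 and +0.53 ± 0.18, and Phlda1 at +0.60 ± 0.10 and +1.04 ± 0.12. The values of Bora and Cdc25b against goblet cells are a description, and their calls against dividing cells were kept in 10 and 5 of 19 alternatives. Among the promoters found for 41 of the 52, 8 (19.5%) held a CHR match and 26 (63.4%) a CCAAT match, against 10.8% and 37.6% of the promoters of tested genes.

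Genes below both neighbours included genes of differentiated epithelium. Lgals3, a galectin of surface epithelium, stood at 112, 260 and 819 CPM in members, against 289, 693 and 1133 CPM in goblet cells and 385, 860 and 1406 CPM in dividing cells. The ranges overlapped, and in each of the 7 mice members were lowest. The differences were -1.44 ± 0.23 and -1.18 ± 0.12 (edgeR, adjusted p = 0.000145 and 6.99e-08). Mgat4c, a glycosyltransferase, was at -1.45 ± 0.32 and -1.49 ± 0.18, and Cyp2c55, a cytochrome of the colon, at -1.15 ± 0.20 and -1.38 ± 0.16. Muc3 was at -1.19 ± 0.42 against goblet cells, a call lost in 8 of 19 alternatives.

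Members were not uniform along the goblet axis, which is part of the rule, so the following is a description over pooled cells. The 50 members with 50 to 100 goblet UMIs per 10000 had 234 CPM of Zg16 and 1130 CPM of Reg4. The 123 with 400 or more had 9448 and 13408.5 CPM. In the same direction Hes6 went from 249 to 117 CPM and Ascl2 from 46.5 to 13.4 CPM. The summed S-phase genes went from 10.9 to 7.57 UMIs per 10000, while the summed G2 and M genes stayed between 46.2 and 51.7 in the 4 bins. Atoh1 was 188, 273, 295 and 224 CPM in the bins from low to high. Median depth was 10460 UMIs in the lowest and 7924 UMIs in the highest bin. The bins pool cells of different mice, and the parts of depth and of the mix of mice in these differences were not tested.

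The design's main contrast was age. To compare shares across depths each cell was thinned to 3000 UMIs, which left out 57 high-depth and 1563 low-depth cells, and shares were adjusted for compartment. In these shares and those below, goblet cells and dividing cells mean all cells past the goblet or the division limit, members included. The share of goblet cells past the division limit was 8.01%, 1.28%, 10.2%, 9.20% and 9.60% in Young 1 to 5. It was 3.76%, 3.098%, 6.52%, 4.70%, 7.68% and 3.17% in Old 1 to 6. Young 2 was the lowest of all mice and the other young mice were above each old mouse. The 1.28% of Young 2 is a fitted value. It rests on its distal colon library alone, with 0 members among 20 cells past the goblet limit. The means were 7.65% ± 3.65 (SD, n = 5) and 4.82% ± 1.89 (SD, n = 6), or 7.70% and 4.73% without thinning. The difference of -3.0 ± 1.71 percentage points (SE) did not pass the two-sided exact permutation test within depth sets (200 arrangements, p = 0.125, adjusted over 3 shares 0.375).

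Young 2 decided the size of that difference. Without it the difference was -4.42 points (exact permutation p = 0.02, adjusted 0.06). Within the low-depth mice it was -4.22 points (exact permutation p = 0.2) and within the high-depth mice -2.03 points (exact p = 0.6). Without Young 5 it was -2.70 points. The share of dividing cells that passed the goblet limit was 12.6% ± 7.75 (SD, n = 4) in young and 11.1% ± 6.91 (SD, n = 6) in old mice (difference -1.54 ± 3.57, exact permutation p = 0.68). Members were 2.10% ± 1.45 (SD, n = 5) of all cells in young and 1.53% ± 0.865 (SD, n = 6) in old mice (exact permutation p = 0.41).

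Gene expression in members was compared between 3 young and 4 old mice on 5910 genes, with depth set as a term, and 4 genes (0.0677%) passed, 1 higher (0.0169%) and 3 lower (0.0508%) in old mice (285 had an unadjusted p below 0.05). Kif26a, an atypical kinesin, was higher in old mice. It stood at 0, 1.95 and 3.63 CPM in Young 3, 4 and 5 (0, 3 and 3 UMIs) and at 32.6, 32.9, 56.8 and 61.5 CPM in Old 1, 4, 5 and 6. The ages did not overlap, and the log2 difference was +3.30 ± 0.37 (SE; edgeR, adjusted p = 0.000616), whose size depends on the prior count because of the few young UMIs. The call was lost without the deepest 5% of cells of each library, where 0 genes were called higher in old mice. Goblet cells showed the same order, with 4.19 to 12.6 CPM in young and 40.7 to 87.6 CPM in old mice. In dividing cells the highest value was 2.62 CPM.

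The antimicrobial lectins Reg3g and Reg3b were lower in old mice. Reg3g stood at 9.49, 343 and 460 CPM in Young 3, 4 and 5 and at 6.52, 104, 30.1 and 32.5 CPM in Old 1, 4, 5 and 6. Young 3 and Old 1, the high-depth mice, were both low, so the ages overlapped. The difference was -2.55 ± 0.33 (edgeR, adjusted p = 0.00211), and for Reg3b it was -2.71 ± 0.37 (adjusted p = 0.00221). Within the low-depth mice alone these were -2.73 and -2.75 (adjusted p = 0.00228 and 0.00691). Both calls were lost with DESeq2 and without the depth term. Without the deepest 5% of cells only 1 gene was called lower in old mice. At least 1 of the 2 calls was therefore lost there. Hspa1a, an inducible heat shock chaperone, stood at 94.2 to 148 CPM in young and 17.4 to 60.7 CPM in old mice (-1.70 ± 0.28, adjusted p = 0.0203), a call lost in 10 of 16 alternatives.

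No gene passed a test for an age effect that differs between members and goblet cells: 0 of 5268 (0%) passed in edgeR and 0 in DESeq2, with 290 and 60 at an unadjusted p below 0.05. For Kif26a the difference of age effects was +1.76, for Reg3g -0.57, for Reg3b +0.46 and for Hspa1a -0.54. Of the lists described above, no gene other than Hspa1a passed with age. This holds for 16 goblet genes, 27 genes of the G2 and M phases, 17 of the S phase and 11 stem cell genes. Cdkn2d was at +0.26 ± 0.20 and Dll1 at +0.23 ± 0.29, neither passing.

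**Figure D4:**
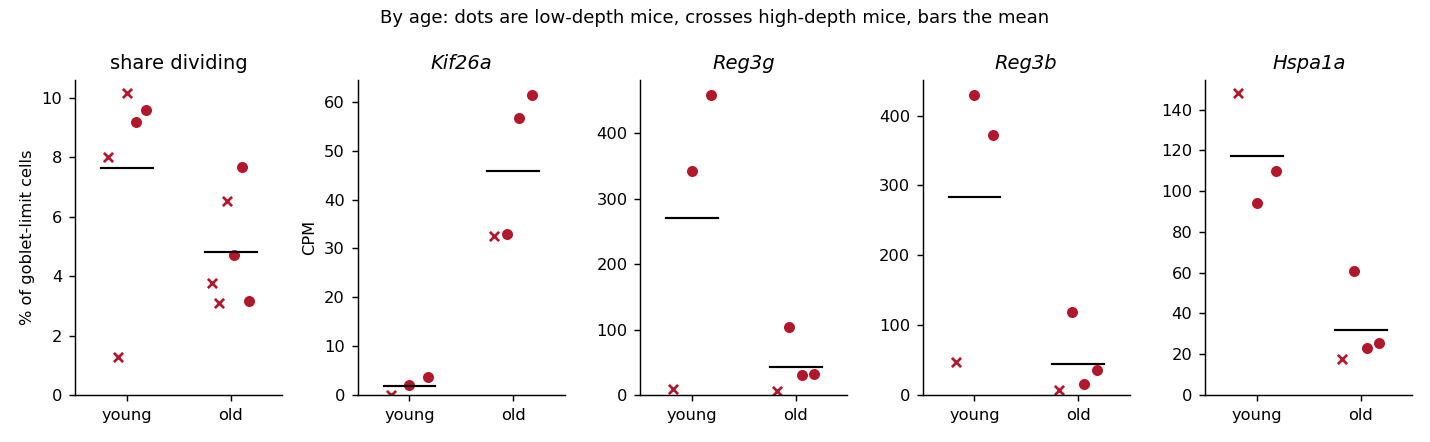
Share past the division limit among all cells past the goblet limit, in percent (11 mice, thinned and adjusted for compartment). The other panels give levels of Kif26a, Reg3g, Reg3b and Hspa1a in members in CPM (7 mice). Young mice stand against old, with dots for low-depth mice, crosses for high-depth mice and bars at the mean. Kif26a and Hspa1a separate the ages, Reg3g and Reg3b overlap through Young 3, and Young 2 at 1.28% is the lowest share. The value of Young 2 is fitted from its distal colon, with 0 members among 20 cells past the goblet limit.

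The gut compartments were compared within mice. Among dividing cells with at least 20 cells per library, the share past the goblet limit was highest in the distal colon. There it was 21.2% in Young 4, 25% in Young 5, 22.5% in Old 4, 43.5% in Old 5 and 9.52% in Old 6. The mean of 24.3% compared with 14.5% in the cecum of the same 5 mice (+9.85 ± 5.13 points, SE) and with 9.74% in the proximal colon (+14.6 ± 4.74). Each mouse was higher in the distal colon in both comparisons, and 5 mice cannot give an exact p below 0.0625, which both reached (adjusted over 9 comparisons 0.188). Without Old 5 the difference from the cecum was +4.86 points, and without the highest Scrublet scores it was +6.75 points and held in 3 of 5 mice. Among all cells, those past the goblet limit were also more frequent in distal colon than cecum, except in Young 4. Without thinning they were 181 of 404 and 865 of 3403 in Young 5, and 600 of 1245 and 497 of 1843 in Old 4. They were 241 of 512 and 136 of 562 in Old 5, 303 of 875 and 264 of 1466 in Old 6. In Young 4 they were 382 of 1323 and 482 of 1560. The part of this in the share was not tested. The share of goblet cells past the division limit was lower in the distal colon than in the cecum in 7 of 8 mice (-3.74 ± 2.24 points, exact sign-flip p = 0.109; -1.82 points without Young 1) and lower in the proximal colon in 5 of 6. Among all cells, members were 1.30% of the proximal colon and 2.59% of the cecum in 10 mice (exact p = 0.0195, adjusted 0.176). The difference of -1.30 points was -0.768 without Young 1 and -0.732 without the highest Scrublet scores.

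More genes of members passed between compartments than with age, in a different set of libraries. The fit used 10 libraries of 4 low-depth mice with at least 10 members each, with mouse as a block, and 3523 genes. Between distal colon and cecum 260 genes (7.38%) differed, 109 higher (3.09%) and 151 lower (4.29%) in the distal colon. Between proximal colon and cecum 37 (1.05%) differed, 19 higher (0.539%) and 18 lower (0.511%) in the proximal colon, so that 51.4% were higher (65.2% of 23 calls in DESeq2). Between distal and proximal colon 77 (2.19%) differed, 25 higher (0.71%) and 52 lower (1.48%) in the distal colon. These 3 counts rested on Young 4 and Old 4, being 110, 15 and 15 without Young 4 and 146, 3 and 45 without Old 4. No gene of the G2 and M phases (24 tested) or of the S phase (9 tested) passed between distal colon and cecum. Of 16 goblet genes 4 were higher distally (Agr2, Klk1, Creb3l1 and Ern2), 3 were lower (Ang4, Retnlb and Reg4) and 9 did not pass. Retnlb was kept in 9 of 9 alternatives, Agr2 and Reg4 in 6, Klk1 and Creb3l1 in 5, Ang4 in 4 and Ern2 in 1. Ang4 did not pass without Old 5, Agr2 and Creb3l1 without Young 4 or Old 4, Reg4 without Young 4, Klk1 without Old 4, and Ern2 without any one of the 4 mice.

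Hoxb13, the homeobox gene of the hindgut's posterior end, checks the compartment labels. It stood at 364, 281 and 433 CPM in the distal colon of Young 4, Old 4 and Old 5 and at 1.61 to 15.9 CPM in the cecum of 4 mice, without overlap (+4.22 ± 0.25, edgeR, adjusted p = 5.61e-10). Mptx1, a secreted pentraxin, stood at 15237, 6873 and 59254 CPM in the distal colon and at 174 to 2665 CPM in the cecum (+3.78 ± 0.68, adjusted p = 0.000751). St3gal6 (+3.58 ± 0.21) and St6galnac6 (+3.22 ± 0.23), which add sialic acid to glycans, were higher distally, and so was the chemokine Ccl6 (+2.16 ± 0.17). Plet1, a surface protein of epithelial progenitors, was higher in the proximal colon (+3.72 ± 0.27) and in the distal colon (+2.58 ± 0.30) than in the cecum.

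Other genes were higher in cecal than in distal members. Retnlb, an antibacterial resistin-like protein, stood at 1801, 1377, 2728.5 and 2138 CPM in the cecum of Young 4, Young 5, Old 4 and Old 5. In the distal colon of Young 4, Old 4 and Old 5 it stood at 30.9, 0 and 193 CPM (-4.63 ± 0.62, edgeR, adjusted p = 3.94e-05). In the proximal colon of Young 4, Young 5 and Old 4 it stood at 1141, 1135 and 0 CPM, and its difference from the cecum did not pass (-1.17 ± 0.48, adjusted p = 0.525). Sct, which encodes the hormone secretin, stood at 997 to 1613 CPM in the cecum and 20.0 to 52.3 CPM in the distal colon (-4.68 ± 0.43). In the proximal colon of the same 3 mice Sct stood at 338, 1020 and 66.5 CPM (against cecum -1.52 ± 0.33, adjusted p = 0.0180, kept in 5 of 9 alternatives). Papss2, which makes the sulfate donor for sulfated mucins, differed by -2.37 ± 0.19 (proximal colon against cecum -1.84 ± 0.20). Of 28 genes followed for distal colon against cecum 19 passed in every alternative that could be fitted, and all 246 alternative values kept their direction.

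C1qa, a chain of complement C1q usually made by macrophages, stood at 272 to 380 CPM in cecal members and at 0, 0 and 3.33 CPM in the distal colon (0, 0 and 1 UMIs; -5.38 ± 0.45, edgeR, adjusted p = 4.35e-08). It was as high in goblet cells (median 118 CPM over 7 mice, against 174 CPM in members; -0.13 ± 0.16, adjusted p = 0.567) and stood at a median of 0 CPM in dividing cells. The chains C1qb and C1qc, which assemble with it, had 0 UMIs each in members of the 7 mice, against 708 UMIs of C1qa, and 1 UMI each in goblet cells, against 6180. The immune markers Cd3e, Cd79a and Lyz2 were at 0 in members, as given above. C1qb and C1qc were looked up after the values of C1qa were seen.

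**Figure D5:**
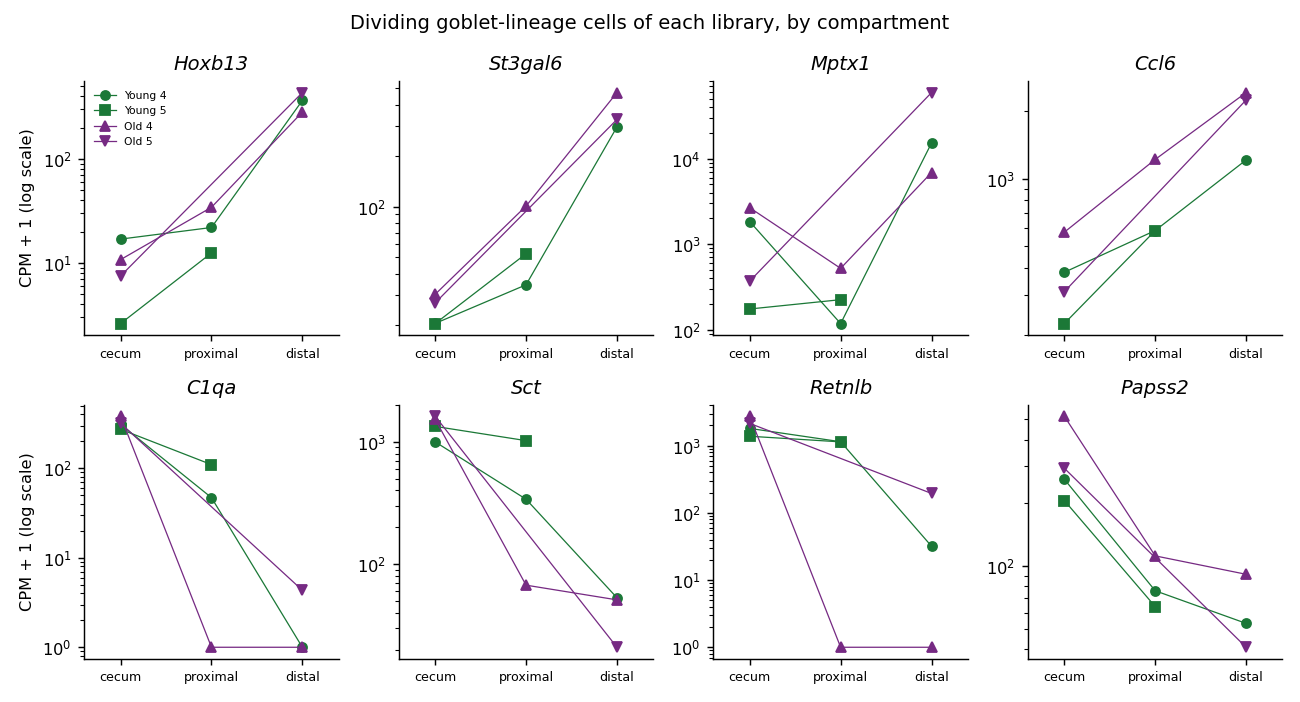
Levels of 8 genes in members (CPM plus 1, log axis) in cecum, proximal colon and distal colon of 4 low-depth mice, with lines joining libraries of a mouse. Hoxb13, St3gal6, Mptx1 and Ccl6 are higher in the distal colon than in the cecum, and C1qa, Sct, Retnlb and Papss2 are lower.

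Few genes passed a test for a compartment difference that differs between members and goblet cells. Each library was a block in this test (14 sums of 4 mice), so libraries of the same mouse counted as separate units. Of 4352 genes tested for a difference between members and goblet cells in distal colon against cecum, 4 (0.0919%) passed in edgeR, 3 with a more positive difference in members (0.0689%) and 1 with a less positive difference (0.023%), and 0 in DESeq2 (86 at an unadjusted p below 0.05). Hmgb2, a chromatin protein of dividing cells, was at +1.16 ± 0.21 (adjusted p = 0.0239) and the chemokine Ccl9 at +1.89 ± 0.35 (adjusted p = 0.0239), kept in 5 and 6 of 9 alternatives. Within members Hmgb2 was at +0.096 ± 0.11 between distal colon and cecum (edgeR, adjusted p = 0.722). Goblet cells were chosen for little mitotic RNA, so the value of Hmgb2 is a description. In this test 24 genes of the G2 and M phases had a median of +0.60, against -0.019 over all genes, and 0 passed. Sval1, a secreted protein, was at -3.08 ± 0.60 (adjusted p = 0.0322). Sval1 was at +2.34 without the highest Scrublet scores and at +0.55 without the deepest cells, fits that held 10 and 12 sums in place of 14, and the cause was not tested.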

How the data were processed

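The authors deposited, for each of 33 libraries, raw UMI counts per gene and cell barcode. Cell Ranger and build mm10 are named in the submitters' processing notes, without a version. The deposited cells had at least 1001 genes and at most 15.0% mitochondrial counts, so a filter had been applied before deposit, and its rule is not given in the sources used here. The deposited values are whole numbers and are not normalized.

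Cells were assigned by the limits described in the report, and shares were counted after thinning each cell to 3000 UMIs (limits of 3 and 15 UMIs). UMIs were summed per mouse and class, or per library, and sums of at least 10 cells were tested with edgeR 4.0.16 (TMM, filterByExpr, quasi-likelihood, Benjamini-Hochberg, R 4.3.3); DESeq2 1.42.0 was an alternative. The 11 genes of the rule were not tested. The procedure was tested on simulated data. Shares and depths were compared with exact permutation and sign-flip tests over mice (scipy 1.17.1), in libraries with at least 20 cells of the denominator. No doublets were removed, and Scrublet (scanpy 1.11.5) served as an alternative chosen after seeing the data. Mice are the replicates, except in the test of class by compartment, where each library was a block.

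The members, lists and tests were chosen with earlier results of these data known. Genes named were members of the goblet, specification, stem, S-phase, G2 and M and cell cycle exit lists. Up to 10 further genes per test and direction were those with the largest differences and at least 20 CPM (5 CPM for age), and for genes beyond both neighbours the 15 with the largest smaller difference. For age, genes named in earlier results were added: of these Vsig2, Bex1 and Bex4 did not pass (+0.77, -0.62 and -0.83), and S100g, Cox6b2 and Meg3 were below the filter. Genes named from the Notch, endoplasmic reticulum, glycosyltransferase, ribosome and stress lists, and C1qb and C1qc, were chosen after their values were seen. Results for some genes are not reported here.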

Additional observations from a re-analysis of the deposited data

Results flagged for a closer look

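Among cells past the goblet limit, Young 2 had a compartment-adjusted share past the division limit of 1.28%. This was far from the other young mice at 8.01% to 10.2%. The fitted value of Young 2 rests on its distal colon library alone, with 0 members among 20 cells past the goblet limit. Old 1 had members whose median depth was 0.671 times the sum of the neighbours' medians, against 0.601 to 0.603 in the other old mice. Bex1, a small signalling adaptor of progenitors, stood at 28.9 CPM in members of Old 6 and at 12.4 to 15.2 CPM in the other old mice. These are 3 of 36 groups examined for a sample far from the others, and chance alone gives about 1 in 20.

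The change from cecum to distal colon also differed between members and goblet cells by the interaction term in edgeR. It was more positive in members for Hmgb2 (+1.16 on the log2 scale, adjusted p = 0.0239) and Ccl9 (+1.89, adjusted p = 0.0239), and less positive for Sval1 (-3.08, adjusted p = 0.0322). DESeq2 called 0 genes in this test. The value of Sval1 turned positive without the highest Scrublet scores and without the deepest cells. Goblet cells were chosen for little mitotic RNA, so the value of Hmgb2, a gene of dividing cells, is a description.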

How the results depend on the processing

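Among the shares, depths and counts of calls, 315 alternative values kept direction and side of the threshold, 69 counts moved by over 1.5 times, and the others are given here; the causes were not tested. Against goblet cells (1461 calls) DESeq2 called 935, the high-depth mice 704, sums without the deepest cells 908, without high Scrublet scores 854, all cells 3179, a division limit of 20 per 10000 455 and no replicate block 550 (65.5% higher, against 52.5%). Against dividing cells (1544) these were 988 with DESeq2, 373 in high-depth mice, 2386 with all cells, 1011 at a limit of 20 and 659 with no replicate block (67.5% higher, against 55.3%). Above both neighbours, DESeq2 gave 16, sums of at least 20 cells 32, high-depth mice 12, low-depth mice 32, no deepest cells 28, Scrublet 18, all cells 87, no replicate block 8, a goblet limit of 100 24 and a division limit of 20 28. Below both, DESeq2 gave 34, no filter 109, high-depth mice 18, Scrublet 24, all cells 126 and no replicate block 6.

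For age (4 calls) DESeq2 gave 2, no filter 41, sums of at least 20 cells 7, no deepest cells 1, no depth term 1 and a replicate block on the mouse number 22. For genes that block rests on the 2 numbers, 4 and 5, that young and old mice with enough members share, and under it Hspa1a did not pass (adjusted p = 0.122). Nothing in the labels says that a number pairs mice. Deviations of same-numbered mice correlated at 0.81, 0.78 and 0.55 for numbers 1 to 3, each best with its own number, and at 0.097 and -0.081 for 4 and 5. For class by age these were 41 with no filter, 3 with at least 20 cells, 3 in low-depth mice and 1 without the deepest cells. Proximal colon against cecum gave 23 with DESeq2, 68 with no filter, 21 without the deepest cells and 7 with no replicate block. Distal colon against cecum gave 129, 95 and 134 with DESeq2, no deepest cells and no replicate block. Distal against proximal colon gave 37, 23 and 41, and 145 without high Scrublet scores. Class by compartment gave 0 with DESeq2, 14 with no filter, 18 with at least 20 cells, 1 without the deepest cells and 9 by Scrublet.

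Directions turned for the goblet share of dividing cells with age (0.267 in high-depth mice, 0.791 with the replicate block on the mouse number) and between proximal colon and cecum (1.76 in high-depth mice). They turned for the dividing share of goblet cells between distal and proximal colon (-0.198 without thinning) and for members among all cells between distal colon and cecum (0.120 in low-depth mice). At a division limit of 20, with 5 mice, depth and genes per cell against dividing cells turned to -0.0735 and -0.0700. Depth (0.675) and genes (0.546) against goblet cells and depth against the sum (-0.748) kept direction, and 5 mice cannot pass. At that limit members among all cells differed between proximal colon and cecum (-1.37 points, adjusted p = 0.0439) and between distal and proximal colon (0.869 points, adjusted p = 0.0352).

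Leaving out each mouse gave -3.63 to 0.128 points for the goblet share of dividing cells with age, -0.804 to 0.346 for members among all cells between distal colon and cecum, and -0.0158 to 0.0258 for genes per cell against dividing cells. Counts ran from 0 to 2 for class by age, 3 to 54, 110 to 266 and 15 to 91 for the compartments, 0 to 11 for class by compartment and 30 to 46 above both neighbours. Of the single genes, Sval1 (0.55) turned by compartment without the deepest cells and Sval1 (2.34) without high Scrublet scores, Defa24 (-0.092) between proximal colon and cecum without the deepest cells, and Mcm7 (0.056) against dividing cells at a limit of 20. High-depth mice were too few for the age and compartment fits, and compartments with at least 20 cells per library could not be fitted. With 276510 to 1539319 UMIs per mouse, genes of a few CPM were below the filter.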
